A study of Macaca fascicularis with 36 samples.

Results

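The genes described here are the short genes of the macaque frontal cortex tables: 106 of 28623 genes whose exonic width, the number of exonic bases the tables give for each gene, was at most 200 and whose mean level over the 36 libraries was at least 1 CPM. CPM is a gene's read count scaled to the same total in every library. Genes with the names ENSMFAG00000000001 to ENSMFAG00000000024 were left out, and so was any gene that differed 20-fold or more between animals. The members were thus chosen by measured values, their CPM and its fold between animals in these same libraries, and the levels of the 106 genes are given as a description. The tables hold 5817 genes of at most 200 bases, of which 3315 had no count in any library and 2394 had counts but a mean under 1 CPM. That left 108 genes, from which 1 was removed for its name and 1 for its difference between animals. The files carry Ensembl-type identifiers and do not pair them with gene names, and the reference table of 40596 genes matched 0 of the identifiers. Gene names, RNA classes and sequences are therefore not given, and the markers of cortical cell types were not read here.

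As background, a very short gene in a genome annotation can be a small structured RNA, such as a small nuclear or nucleolar RNA or a microRNA precursor, a gene for a short peptide, a pseudogene or an incomplete gene model. Small structured RNAs work in splicing, in the modification of other RNAs or in silencing, while short coding genes give small proteins such as subunits of ribosomes and of respiratory complexes. Library protocols commonly select fragments by size, and a short gene model can share sequence with longer relatives.

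The tissue was frontal cortex of 12 cynomolgus monkeys (Macaca fascicularis), taken on day 2 after an intrathecal injection. The 4 control animals, numbered 1501 to 1504, received the isotype control antibody anti-gD at 200 mg/kg. Para09, an agonist antibody against human TREM2, was given to animals 4501 to 4504 at 50 mg/kg, while animals 5501 to 5504 received 200 mg/kg. TREM2 is a surface receptor of microglia, the macrophages of the brain. All animals received an antibody, no untreated animal is among the samples, and the labels give no age. The 3 libraries of an animal are lettered A to C, and no source used here says what a letter stands for. Library totals lay between 15067000 and 36969714 counts. The SAM numbers in the titles form 2 separate runs. The first run of 16 libraries holds letter B of every animal and all letters of animals 1504 and 5501, and the second run of 20 libraries holds letters A and C of the other 10 animals. Anti-gD, 50 mg/kg and 200 mg/kg have 6, 4 and 6 libraries in the first run and 6, 8 and 6 in the second. Library 5501B stood apart, with 15779 genes detected against 17974 or more in every other library.

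Few short genes reached the level limit. Of 5817 genes of at most 200 bases, 108 reached a mean of 1 CPM, and 1.82% were members after the limits on name and animals. Of all genes in the tables, 51.1% reached that mean, with no limit on name or animals. CPM is not scaled by width, so at the same level per base a narrower gene has a lower CPM. Member widths ran from 66 to 198 bases with a median of 171. Most lay near the upper limit, with 38 members between 181 and 200 bases and 46 between 151 and 180. Below these, 14 members had 101 to 150 bases and 8 had at most 100, although 2293 of the short genes are that narrow.

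The width was a multiple of 3 in 92 of the 106 members, or 86.8%, a property the selection did not use. The share was 39.6% among the 2379 other short genes with counts, 33.4% among short genes without counts and 41.5% among the 14377 genes wider than 200 bases that met the same limits on level and animals. Within the widths from 151 to 200 bases it was 82 of 84 members against 233 of 333 other short genes with counts, a larger share in the members. Within the widths up to 150 bases it was 10 of 22 members against 709 of 2046 others, or 34.7%. At most 100 bases wide, 2 of 8 members had such a width against 279 of 752 others, a smaller share in the members. The excess of such widths thus lay above 100 bases, and both sets held more of them above 150. An open reading frame has a length that is a multiple of 3, and a model whose width is one may hold coding bases only. The 14 members with other widths had a median width of 106 bases.

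**Figure D1:**
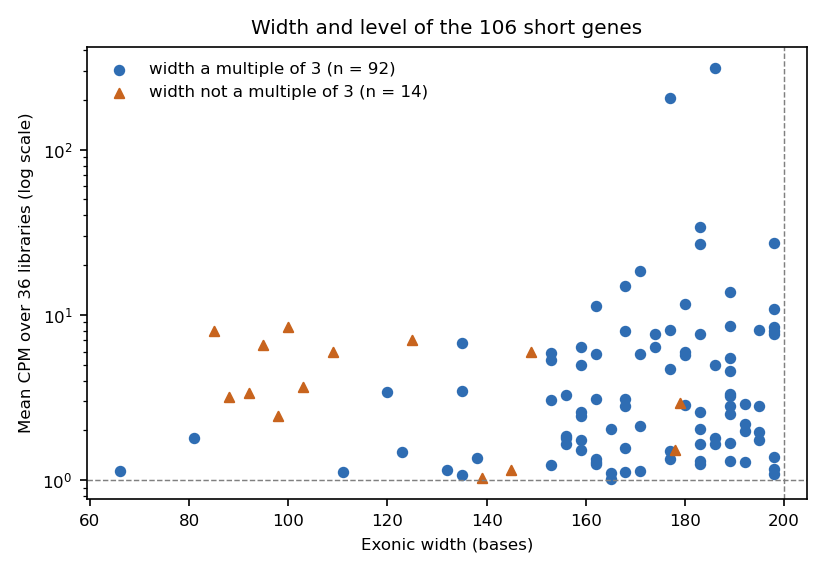
Exonic width in bases against mean CPM over the 36 libraries (log scale) for the 106 short genes, with circles for widths that are multiples of 3 and triangles for other widths. Dashed lines mark the limits of 200 bases and 1 CPM. The members crowd toward the width limit, 2 members stand above 100 CPM, and the triangles are mostly narrower than 150 bases.

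Levels were low for most members. The mean was under 2 CPM in 40 members, from 2 to under 5 CPM in 30, from 5 to under 10 CPM in 25, from 10 to under 100 CPM in 9 and above 100 CPM in 2. Their median of 2.85 CPM compares with 23.5 CPM for the wider genes. Per kilobase of width the medians were 17.2 CPM in the members and 8.62 in the wider genes. The limits on width and level put a floor under every member's level per kilobase that wider genes do not have, so these medians are set in part by the selection and show no difference between the sets. All but 3 members had at least 1 count in each of the 36 libraries.

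A pair of members carried about as many counts as the other 104 together, 51.3% of the members' summed CPM. ENSMFAG00000006903, 186 bases wide, averaged 314.5 CPM, which is 1691 CPM per kilobase and rank 14 of all ranked genes on that scale. Its anti-gD animals measured 324, 443, 310 and 281 CPM, its 50 mg/kg animals 261, 274, 321 and 283 CPM and its 200 mg/kg animals 339, 315, 312 and 283 CPM. Animal 1502 was the highest, and the 3 groups overlapped. ENSMFAG00000026126, 177 bases wide, averaged 205 CPM, or 1158 CPM per kilobase, at rank 19. Its animals measured 124, 229, 180 and 191 CPM under anti-gD, 234, 226, 206 and 189 CPM at 50 mg/kg and 203, 249, 210 and 208 CPM at 200 mg/kg. Here animal 1501 was the lowest of the 12, and the groups overlapped again. Across the 36 libraries the log2 CPM of both genes had a Pearson correlation of 0.00, given as a description, although within a library both are scaled by the same library size.

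The next 6 members by mean level lay far lower. ENSMFAG00000000772 averaged 33.9 CPM, ENSMFAG00000030411 27.1 CPM, ENSMFAG00000030105 27.0 CPM, ENSMFAG00000012527 18.6 CPM, ENSMFAG00000025266 14.9 CPM and ENSMFAG00000028246 13.8 CPM. Their widths of 168 to 198 bases differ little, so the order per kilobase is nearly the same. Of these 6 genes, ENSMFAG00000028246 had the largest SD of log2 CPM between animals, 0.36. It ran from 9.32 CPM in animal 5503 to 19.3 CPM in animal 4504, with both extremes in Para09 groups. ENSMFAG00000030105, with an SD of 0.32, had the wider range, from 18.9 CPM in animal 5501 to 40.5 CPM in animal 1502. In all, the first 8 members held 64.7% of the summed level. No treatment comparison of any of the 8 reached an unadjusted edgeR p under 0.05.

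The study compares cortex under the TREM2 agonist with cortex under the control antibody. No short gene was called in any of its comparisons. For 200 mg/kg against anti-gD, 0 of 106 members passed an edgeR adjusted p of 0.05, where 0% of the 17360 genes tested did. At an unadjusted p under 0.05 there was 1 member higher and 0 lower, or 0.943%, against 3.98% of all genes. For 50 mg/kg against anti-gD, 0 members were called (all genes 0%), and 2 higher and 1 lower reached the unadjusted p, or 2.83% against 5.74% of all genes. Between the 200 and 50 mg/kg groups 0 members were called (all genes 0%), and 1 higher and 1 lower reached it, or 1.89% against 2.54%. DESeq2 and limma called 0 members in each comparison as well. DESeq2 had 3, 3 and 2 members at an unadjusted p under 0.05 in the same order of comparisons. The DESeq2 share over all genes is not given here, so these counts show nothing particular to the members. In the second run alone, which lacks animals 1504 and 5501, 0 members were called but more reached the unadjusted edgeR p. These were 9 higher and 3 lower for 200 mg/kg against anti-gD, or 11.3% against 12.6% of all genes, and 10 higher and 5 lower for 50 mg/kg against anti-gD, or 14.2% against 10.8%. For 200 against 50 mg/kg they were 0 higher and 2 lower, or 1.89% against 3.61%. In bulk RNA, fewer cells of a type and less RNA per cell cannot be told apart, which applies to every level given here.

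The median log2 fold change of the members was 0.05 for 200 mg/kg against anti-gD, -0.03 for 50 mg/kg against anti-gD and 0.08 for 200 against 50 mg/kg. Over all genes the medians were 0.00, 0.00 and 0.01. The comparisons share animals, so the 3 medians are not independent of each other. The groups of 4 animals did not overlap in 0 members for 200 mg/kg against anti-gD, in 1 for 50 mg/kg against anti-gD and in 4 for 200 against 50 mg/kg. Among the members and wider genes together the shares without overlap were 2.17%, 4.06% and 2.46%. An exact permutation test of 4 against 4 animals cannot give a p below 0.0286.

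Among members on the higher side, ENSMFAG00000046286, 180 bases wide, had the smallest edgeR p at both doses. It measured 1.90, 2.28, 2.37 and 1.55 CPM in the anti-gD animals and 3.49, 3.74, 3.5 and 3.32 CPM in the 50 mg/kg animals. These groups did not overlap, and the 50 mg/kg animals were closely spaced. The difference was 0.81 on the log2 scale (SE 0.25, edgeR adjusted p = 0.857, exact two-sided permutation p = 0.0286). The 200 mg/kg animals measured 1.60, 2.98, 3.87 and 3.65 CPM, so 3 stood above every control and animal 5501 stood among the controls. That difference was 0.58 (SE 0.25, edgeR adjusted p = 1.00, exact permutation p = 0.143). Its libraries measured 3.21 CPM in 5501A, 0.378 CPM in 5501B and 1.48 CPM in 5501C, and 5501B was the lowest of all 36. Without 5501B the 200 mg/kg difference was 0.66. Animal 5501 has only first-run libraries, and this gene averaged 1.93 ± 0.934 CPM in the first run (SD, n = 16) and 3.55 ± 0.860 CPM in the second (SD, n = 20). Within the first run, over letter B alone, the lower dose differed from anti-gD by 0.69 and the higher by 0.45, and within the second run by 0.64 and 0.57.

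ENSMFAG00000029189, 153 bases wide, separated the Para09 doses from each other. It measured 8.32, 6.16, 9.74 and 8.27 CPM at 50 mg/kg and 2.48, 3.68, 6.12 and 3.74 CPM at 200 mg/kg. The highest animal at 200 mg/kg, 5503, came just under the lowest at 50 mg/kg, 4502. The 200 mg/kg group differed from the 50 mg/kg group by -1.03 (SE 0.32, edgeR adjusted p = 0.961, exact permutation p = 0.0286). The anti-gD animals measured 2.66, 4.88, 6.47 and 2.90 CPM, which put the 50 mg/kg group 0.95 above them (SE 0.32, edgeR adjusted p = 0.857, exact permutation p = 0.0571). This member also averaged 2.90 ± 1.95 CPM in the first run (SD, n = 16) and 7.23 ± 2.70 CPM in the second (SD, n = 20), and the 50 mg/kg group has the most second-run libraries. Within the first run, over letter B, 200 against 50 mg/kg came to -1.31, and within the second run to -0.85.

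On the lower side of both doses stood ENSMFAG00000030417, 125 bases wide. It measured 6.40, 12.7, 7.37 and 10.9 CPM under anti-gD, 4.38, 5.05, 3.63 and 7.12 CPM at 50 mg/kg and 8.29, 6.08, 7.43 and 4.88 CPM at 200 mg/kg. It had the smallest edgeR p of all members at 50 mg/kg, 0.00571 before adjustment. At 50 mg/kg only animal 4504 reached into the control range. The differences were -0.88 at 50 mg/kg (SE 0.26, edgeR adjusted p = 0.857, exact permutation p = 0.0571) and -0.49 at 200 mg/kg (SE 0.26, edgeR adjusted p = 1.00, exact permutation p = 0.200). Between runs, second minus first, this member differed by -0.78 (SE 0.32, limma adjusted p = 0.0614), with 8 of 10 animals lower. The 50 mg/kg group has the most second-run libraries. Over 23 alternatives, single runs among them, the 50 mg/kg difference ran from -1.09 to -0.68.

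The other members with the smallest p in a comparison differed less. ENSMFAG00000033579 averaged 2.41 ± 0.380 CPM under anti-gD and 3.41 ± 1.22 CPM at 200 mg/kg (SD, n = 4), with animal 5501 at 5.06 CPM above all others. Library 5501B, at 7.52 CPM, was the highest of all 36, while 5501A and 5501C measured 3.82 and 3.36 CPM. The log2 difference of 0.50 came to 0.33 without 5501B and to 0.25 without the animal. ENSMFAG00000021421, 103 bases wide, averaged 4.09 ± 0.95 CPM under anti-gD and 2.95 ± 0.701 CPM at 200 mg/kg (SD, n = 4), and the groups overlapped. ENSMFAG00000021753 averaged 11.3 ± 1.76 CPM under anti-gD, 9.34 ± 1.74 CPM at 50 mg/kg and 11.9 ± 0.718 CPM at 200 mg/kg (SD, n = 4). Its 50 mg/kg difference from anti-gD was -0.53 within letter B of the first run and -0.02 within the second run. For 200 against 50 mg/kg, ENSMFAG00000018295 gave 0.28 and ENSMFAG00000022981 gave -0.48 on the log2 scale, both with overlapping groups. The 4 members without overlap in that comparison were ENSMFAG00000029189 and ENSMFAG00000030354 on the lower side and ENSMFAG00000006255 and ENSMFAG00000016272 on the higher side, and the last 2 are named because their values were seen.

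**Figure D2:**
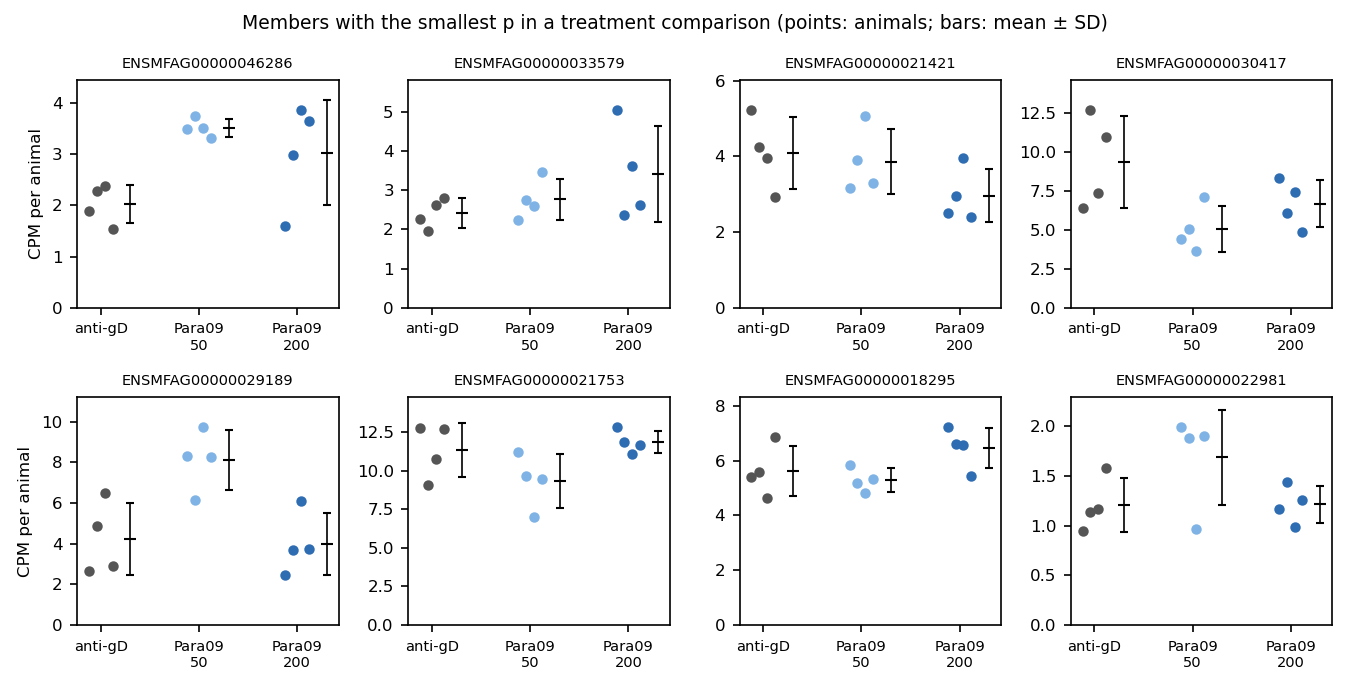
CPM per animal, from counts summed over its 3 libraries, for the 8 members with the smallest p in a treatment comparison. Points are animals and bars are the mean ± SD of 4 animals. ENSMFAG00000046286 at 50 mg/kg lies wholly above anti-gD, and ENSMFAG00000029189 at 50 mg/kg lies wholly above 200 mg/kg, while the other panels show overlapping groups.

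The members' summed level is given without a test. It was 1014 ± 111 CPM in the anti-gD animals, 979 ± 9.96 CPM at 50 mg/kg and 1033 ± 46.1 CPM at 200 mg/kg (SD, n = 4 each). The controls measured 916, 1173, 968 and 1001 CPM, and their wide spread came from animal 1502, in which the 2 most abundant members alone summed to 672 CPM. The other 104 members summed to 494 ± 27.3, 480 ± 24.1 and 503 ± 25.8 CPM in the 3 groups (SD, n = 4 each), and these ranges overlapped. By run, the sum averaged 1063 ± 92.6 CPM in the first (SD, n = 16) and 972 ± 71.6 CPM in the second (SD, n = 20). The first-run mean was 1087 ± 90.7 CPM in letter B (SD, n = 12) and 990 ± 58.6 CPM in letters A and C (SD, n = 4). The second run holds letters A and C only. For the 2 most abundant members the means were 572 CPM in first-run B, 458 CPM in first-run A and C and 500 CPM in the second run. For the other 104 members they were 515, 532 and 472 CPM in the same order, so the 2 parts differed in order. The sum over all members was lower in the second-run libraries than in letter B in 9 of the 10 animals with both runs, where letter and run cannot be told apart. Scaled by TMM, the edgeR library-size adjustment, the run means came closer, to 1034 and 995 CPM.

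**Figure D3:**
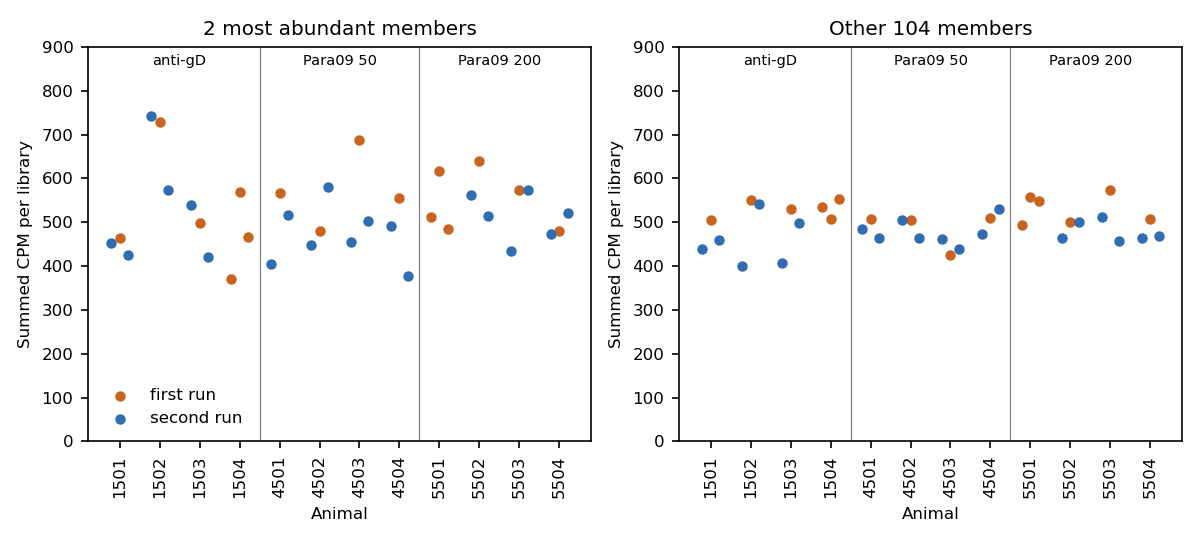
Summed CPM per library for the 2 most abundant members (left) and the other 104 members (right), by animal, with letters A, B and C from left to right within an animal. Orange points are first-run libraries and blue points second-run libraries. The pair swings widely between libraries of 1 animal, and the other 104 members stay between 399 and 573 CPM.

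More members were called between runs than between treatments. With group, letter and run in the model and the animal as a random block, limma voom called 14 of 106 members between runs, or 13.2%, against 28.2% of the 15928 genes tested. Of these, 4 were higher in the second run, where 15.6% of all genes were, and 10 were lower, where 12.6% of all genes were. The median log2 difference, second minus first run, was -0.24 in the members and -0.11 over all genes. A positive difference was seen in 22 of 106 members, and the share over all genes is not given here. Called differences ran from -1.71 to -0.36 and from 0.84 to 1.69. With RLE size factors or with raw count sums as library sizes, 10 members were called, 4 higher and 6 lower.

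Letter and run can be told apart only through letters A and C of animals 1504 and 5501, so this count rests on them. Without animal 1504 a single member was called, and without 5501 there were 11, of which 7 were among the 14. Leaving out 1501, 1503, 4502 or 5503 gave 9, and leaving out 5502 gave 8. With no letter term 64 members were called, 14 higher and 50 lower, and what belongs to the letter and what to the run then cannot be told apart. Without library 5501B there were 20, now 12 higher and 8 lower, of which 11 were among the 14. Each of the 14 members kept the sign of its difference in all 20 alternatives. The alternatives refit mostly the same libraries from which the 14 were picked, so the kept sign is no separate evidence. Shares of all genes called in the alternatives are not given here. Their counts thus show how the call moves with the model and no trait of the members. Within animals, a count that needs no model, 8 members were higher in the second run in all 10 animals with both runs, or 7.55%, against 20% of the members and wider genes together. Lower in all 10 were 4 members, or 3.77%, against 4.96%.

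**Figure D4:**
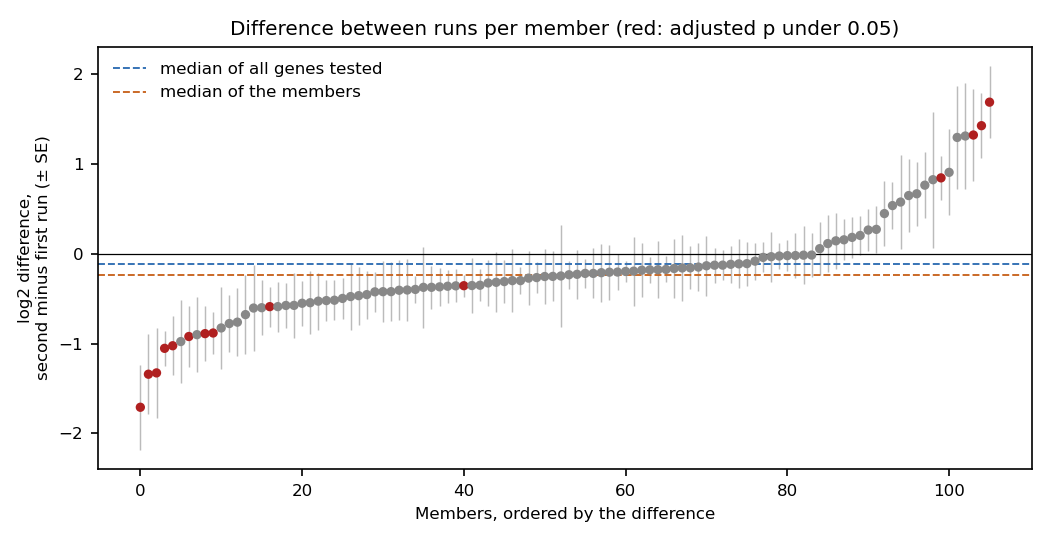
Log2 difference between runs, second minus first, with its SE from limma voom, for each of the 106 members in order of size. Red points have an adjusted p under 0.05, and dashed lines mark the medians of all genes tested and of the members. Called members lie at both ends, with 10 on the lower and 4 on the higher side.

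ENSMFAG00000030354, 135 bases wide, was 1 of 2 members whose runs did not overlap, or 1.89% of members against 4.96% of the members and wider genes together. It ranged from 0.252 to 2.61 CPM in the first run (median 1.35 CPM, n = 16) and from 3.40 to 6.54 CPM in the second (median 4.99 CPM, n = 20). All second-run values were thus higher, and the 4 first-run libraries with letters A and C, at 0.593 to 2.61 CPM, lay with the other first-run libraries. The difference was 1.42 (SE 0.36, limma adjusted p = 0.00470), with 10 of 10 animals higher in the second run. Without animal 1504 it was 1.20 and no longer called. Run, taken first and without letter, held 75.5% of the squared deviations of its log2 CPM, and the treatment group 2.65%. These shares are not adjusted for the numbers of runs and groups. Animals 1504 and 5501, which lack second-run libraries, were the lowest animals for this gene, at 1.52 and 0.879 CPM, and it is also 1 of the 4 members without overlap between doses.

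ENSMFAG00000031225, 165 bases wide, ranged from 0.230 to 1.45 CPM in the first run (median 0.734 CPM, n = 16) and from 0.882 to 1.89 CPM in the second (median 1.39 CPM, n = 20). The runs overlapped, and 8 of 10 animals were higher in the second run. The modelled difference of 1.69 (SE 0.40, limma adjusted p = 0.00286) stood well above the mean difference within animals, 0.88 on the log2 scale (SD 0.62, n = 10). Without animal 1504, whose A and C libraries averaged 0.367 CPM, the modelled difference was nearly the same, 1.66, but was not called.

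Among lower members, ENSMFAG00000036271, 88 bases wide, ranged from 1.81 to 5.77 CPM in the first run (median 3.94 CPM, n = 16) and from 1.60 to 3.65 CPM in the second (median 2.44 CPM, n = 20). The lowest first-run value was library 5501B. The difference was -1.05 (SE 0.19, limma adjusted p = 0.000199), with 10 of 10 animals lower in the second run, and this is the member called without animal 1504. The mean difference within animals was smaller, -0.51 (SD 0.32, n = 10). ENSMFAG00000029517, 195 bases wide, had first-run and second-run medians of 2.20 and 1.43 CPM (n = 16 and 20) and a difference of -0.88 (SE 0.24, limma adjusted p = 0.00749), with 8 of 10 animals lower. Its mean difference within animals was -0.41 (SD 0.64, n = 10). It was no longer called without animal 1504, at -0.72.

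The gene left out for its difference between animals, ENSMFAG00000013697, 164 bases wide with a mean of 1.13 CPM, split by run. It had 0 counts in all 16 first-run libraries, and 3 counts there would be 0.12 to 0.199 CPM. In all 20 second-run libraries it measured 0.973 to 2.95 CPM. Animals 1504 and 5501 have first-run libraries only and so stood at 0, which put the gene over the 20-fold limit. The sources used here do not say whether both runs were counted in the same way, so a 0 here may not mean that reads were absent. It is no member and enters no count above.

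**Figure D5:**
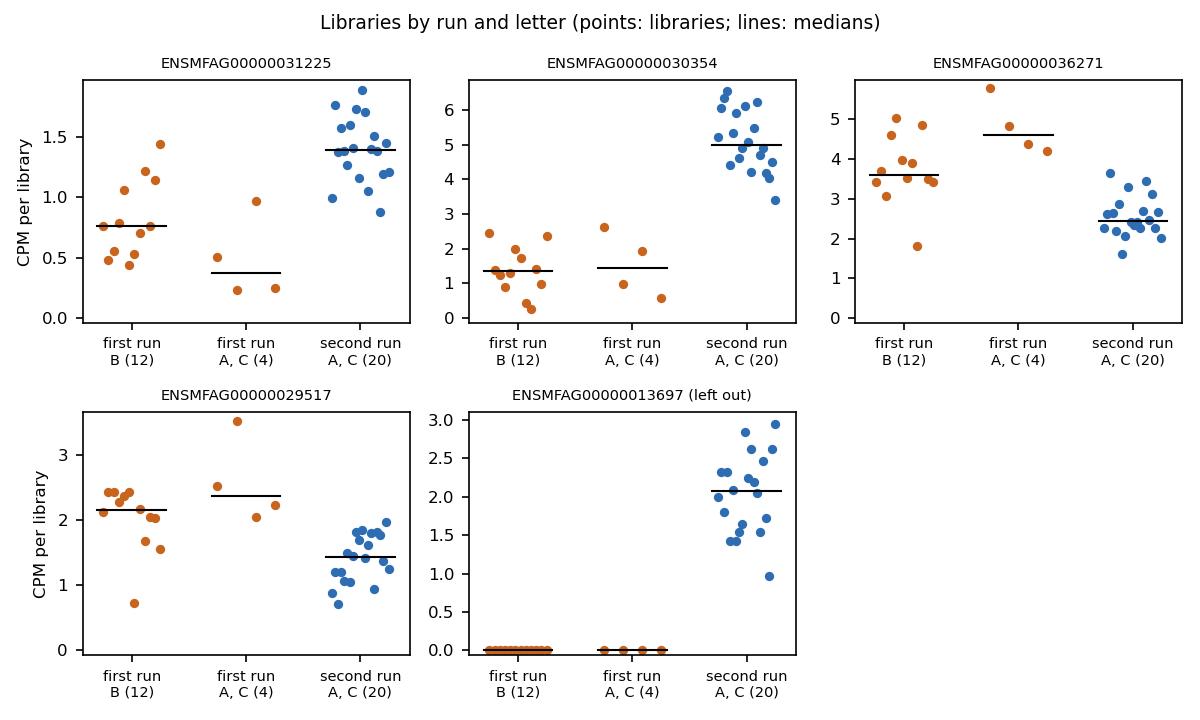
CPM per library for the 2 members with the smallest p on each side of the run comparison and for the gene left out, by run and letter, with the number of libraries in brackets. Points are libraries and lines are medians. ENSMFAG00000030354 and ENSMFAG00000013697 show no overlap between runs, and the first-run A and C libraries lie with the first-run B libraries in both.

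No dependence of the run difference on treatment passed the test. In the 50 mg/kg group the first run holds letter B only and the second run letters A and C only. The test therefore cannot tell a run difference that varies by group from a letter difference that does. In the interaction of run and group 0 members passed a limma adjusted p of 0.05 (all genes 0%), and 7 reached an unadjusted p under 0.05, or 6.60%, against 4.69% of all genes. For the 50 mg/kg term alone, 12 members were higher and 0 lower at an unadjusted p under 0.05, or 11.3% against 7.87% of all genes, and for the 200 mg/kg term 6 were higher and 4 lower, or 9.43% against 6.71%. The terms share the anti-gD libraries, and 0 members passed adjustment in either. Members whose width is not a multiple of 3 had a median run difference of -0.41 (n = 14), and the others -0.22 (n = 92). In these sets 12 of 14 and 72 of 92 were negative, and 2 and 12 were called.

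Between libraries, a member varied by a median SD of 0.48 in log2 CPM, against 0.35 for the wider genes. For genes under 10 CPM the medians were 0.50 (95 members) and 0.49 (4379 wider genes), so the members varied about as much as wider genes of low level. The squared deviations of log2 CPM were divided in order among runs, treatment groups, animals of a group and the rest. The rest holds the spread among libraries of an animal and run, and also what differs between animals in the gap between runs or letters. The median shares were 12.4%, 4.76%, 29.1% and 47.8% in the members and 18.0%, 4.03%, 29.1% and 36.3% in wider genes. Run came first and without letter, so its share also holds the letter. The shares are not adjusted for the numbers of runs, groups, animals and libraries, so their sizes are not compared between these levels. Under 10 CPM the share between runs was 13.1% in members and 10.9% in wider genes, so its order depends on the level compared. Library 5501B was the highest of all 36 for 19 members and the lowest for 13. Animal 5501 was the highest of the 12 for 29 members and the lowest for 16. Animal 1504, which also has first-run libraries only, was the highest for 17 and the lowest for 6. The low number of detected genes belongs to library 5501B. Its part in these counts, and that of the run, was not tested, and shares over all genes are not given here.

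The steadiest members were ENSMFAG00000001670, with an SD of 0.12 in log2 CPM between animals and values from 4.61 to 6.53 CPM, and ENSMFAG00000029224, with an SD of 0.13 and values from 6.56 to 8.84 CPM. The most variable was ENSMFAG00000008274, with an SD of 1.05. Library 5503B measured 59.6 CPM and 1501C 36.8 CPM, while the other libraries of these animals measured 1.44 to 7.38 CPM. The second most variable, ENSMFAG00000030354 with an SD of 0.75, is described above for its gap between runs.

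Members did not move as a block. Over the 5565 pairs of members the Pearson correlation of log2 CPM across the 36 libraries had a median of 0.03, with extremes of -0.76 and 0.93. It was above 0.8 in 43 pairs and above 0.95 in 0, and 0 pairs had identical counts. ENSMFAG00000015461 and ENSMFAG00000035523 had the highest value, 0.93 over all libraries, 0.90 within the first run and 0.80 within the second. For ENSMFAG00000012756 and ENSMFAG00000013011 it was 0.92 over all libraries, 0.93 and 0.87 within runs. ENSMFAG00000030354 and ENSMFAG00000035523 also had 0.93 over all libraries but 0.14 within the second run. The libraries share animals, runs and scaling, so these values are descriptions.

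The limits of the selection fall among similar genes. Just above the level limit were ENSMFAG00000030390 at 1.02 CPM and ENSMFAG00000030572 at 1.04 CPM, and just below it ENSMFAG00000023584 at 0.999 CPM and ENSMFAG00000025363 at 0.981 CPM. The widest members had 198 bases (8 genes, 1.08 to 27.1 CPM), and the next genes had 201 bases (8 genes, 1.69 to 19.1 CPM). Nearest to the limit between animals were ENSMFAG00000008274, 12-fold, and ENSMFAG00000012756, 8.11-fold.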

How the data were processed

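Per the file headers, each of the 36 deposited tables gives every gene a read count, its width in exonic bases and its RPKM. The submitters' processing notes name GSNAP, with no version. Build, annotation, strand use and the handling of multiply matching reads are not given in these sources, and overlapping genes and close copies may share counts. The authors' RPKM equals the count per kilobase of width over a total larger than the sum of counts, and was used only to recover those totals.

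Members and lists were chosen with earlier results of these data known. Named genes are the 8 of highest mean CPM, the 2 higher and 2 lower with the smallest p per comparison, the 2 most and least variable, and those nearest each limit. Treatment was tested on counts summed per animal (edgeR 4.0.16, quasi-likelihood, TMM, filterByExpr, 12 animals in 1 fit). Run was tested over libraries (limma 3.58.1, voom, duplicateCorrelation). R was 4.3.3. Benjamini-Hochberg adjustment covered all genes tested, and log2 CPM used a prior count of 2. Alternatives were DESeq2 1.42.0, other size factors and filters, single runs, library weights and each animal left out. The fits were also run on simulated data with planted differences. Its spread was set to fixed values, not taken from the members, and it held no letter difference. It therefore does not test how well letter and run are told apart. Without library 5501B, and without animals 1504 and 5501, were added to the treatment comparisons after seeing the data.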

Additional observations from a re-analysis of the deposited data

Results flagged for a closer look

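For the named members and the members' summed levels, 78 groups of 4 animals were examined, and 4 held an animal marked by Dixon's criterion. Its gap to the nearest of the others took a larger part of the group's range than the criterion allows. Chance alone marks about 1 group in 20, but some members were named for their spread between animals, so the count is not set against that rate. ENSMFAG00000008274, named for the largest SD between animals, was marked at both ends of the study. Animal 1501 measured 15.6 CPM against 2.37 to 4.35 CPM in the other anti-gD animals, and animal 5503 measured 19.6 CPM against 1.79 to 4.03 CPM in the others at 200 mg/kg. In each animal 1 library carried the level, 1501C in the second run and 5503B in the first. ENSMFAG00000026126 stood at 249 CPM in animal 5502 against 203 to 210 CPM in the other 200 mg/kg animals. ENSMFAG00000022981 stood at 0.969 CPM in animal 4503 against 1.88 to 1.99 CPM in the other 50 mg/kg animals.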

How the results depend on the processing

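The count of 0 members called held in all 23 alternatives of each treatment comparison. The number of members called between runs was 64 with no letter term, 53 in edgeR with the animal as a fixed term, 53 without animals 1504 and 5501, and 9 with no filter on low counts; with 1 animal left out at a time it ran from 1 (without 1504) to 18. Shares of all genes called in these alternatives are not given here. The cause was not tested, except that the alternatives with no letter term, with fixed animals or without both animals estimate letter and run as 1 difference. The median log2 fold change for 50 mg/kg against anti-gD, -0.03, was 0.09 in the second run alone and 0.05 without animals 1504 and 5501, and that for 200 mg/kg against anti-gD, 0.05, was -0.03 in letter B of the first run. Members numbered 22 at 150 bases, 287 at 300 bases, 36 at 5 CPM, 146 at 0.5 CPM, 105 at 10-fold and 107 without a limit between animals. Over the totals behind the deposited RPKM, the summed level was 583, 580 and 604 CPM in anti-gD, 50 and 200 mg/kg. Over the sums of counts, the scale used elsewhere, it was 675, 694 and 720 CPM without the most abundant member. No paired analysis was possible because the treatment groups hold different animals, and no label pairs an animal of a group with an animal of another. The least counted member had 801 counts over all libraries, against a median of 2269, and the spread of members under 10 CPM was above counting error, at a median chi-square of 6.49 per degree of freedom.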
